A study of Mus musculus with 8 samples.

Results

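The miR-30 family comprises the mature miRNAs cut from both arms of the miR-30a to miR-30e precursors. Its members were chosen by name, as every entry of the miRNA class called miR-30a, b, c, d or e with a 5p or 3p arm. This gave 11 arms, from mmu-miR-30c-5p, mmu-miR-30d-5p and mmu-miR-30e-5p to mmu-miR-30e-3p, among the 551 arm-named mature miRNAs and the 20558 small RNAs in all. The prefix mmu, for mouse, is left out from here on. Small RNA was sequenced from whole testis of 8 adult C57Bl/6 males, 4 on a standard diet (SD: M1N, M2N, TN1 and TN2) and 4 on a Western-like diet rich in sugar and fat (WD: M1W, M2W, M3W and M5W). The labels describe feeding from 4 weeks of age and mating at 4 months, and they use the high-lipid diet sentence for the control males too, so diet was taken from the control or experimental mark in each title. The study's methods give an earlier age for the division of the males between the diets. No genotype other than the strain was given, and the meaning of the letters M and TN in the names was not given in the sources used here.

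A miRNA precursor is a hairpin. Drosha and Dicer cut it to a short duplex, and one strand, the guide, is loaded into an Argonaute protein, which it directs to messenger RNAs that pair with its seed (bases 2 to 8), while the other strand is mostly degraded. In the miR-30 family the 5p strand is usually the guide, and the family is known for holding back genes of the epithelial-to-mesenchymal transition and for its activity in fat cell differentiation. In the testis, germ cells need Dicer to complete spermatogenesis.

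The mature sequences are shown because the seed groups the arms and because single bases separate members that were counted apart. RefSeq's table for GRCm38.p6 held 7 of the 11 arms, and those of miR-30b and miR-30d were not matched. Each sequence is written 5′ to 3′ with the seed in capitals.
miR-30c-5p: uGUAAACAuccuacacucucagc
miR-30a-5p: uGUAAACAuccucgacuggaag
miR-30e-5p: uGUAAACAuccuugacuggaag
miR-30e-3p: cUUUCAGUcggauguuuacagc
miR-30a-3p: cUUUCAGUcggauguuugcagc
miR-30c-2-3p: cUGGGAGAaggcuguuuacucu
miR-30c-1-3p: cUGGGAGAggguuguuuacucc

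The 3 matched 5p arms shared the seed GUAAACA, whereas the matched 3p arms fell into 2 seed groups, UUUCAGU for miR-30a and miR-30e and UGGGAGA for both miR-30c precursors. Counted from 1 at the 5′ end, miR-30a-5p and miR-30e-5p differed by 1 substitution over 22 bases (C13U), and miR-30e-3p and miR-30a-3p also by 1 (A18G). Because 2 mismatches were allowed in the alignment, and how a read that matched more than one miRNA was counted is not given in the sources used here, the split of reads between miR-30a and miR-30e is uncertain in both arms. miR-30c-5p differed from miR-30a-5p by 5 substitutions.

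The hairpins of miR-30a and miR-30e show where the arms lie, with both arms in capitals and the loop and flanks in lower case.
Mir30a: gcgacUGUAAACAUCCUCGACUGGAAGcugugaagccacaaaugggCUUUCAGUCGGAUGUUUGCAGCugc
Mir30e: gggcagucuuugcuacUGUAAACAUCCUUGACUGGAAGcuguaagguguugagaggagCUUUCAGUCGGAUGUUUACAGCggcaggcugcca

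On NCBIM37 (the mm9 build used for the alignment, with GENCODE M1 genes), the 6 precursors formed 3 neighbouring pairs. Mir30a lay at chr1:23279108-23279178 and Mir30c-2 at chr1:23298540-23298623, both on the plus strand with 19361 bases between them and no overlapping gene. Mir30c-1 at chr4:120442139-120442227 and Mir30e at chr4:120445211-120445302 lay on the minus strand with 2983 bases between them, each in an intron of Nfyc, which encodes a subunit of the transcription factor NF-Y and is read from the same strand. Mir30b at chr15:68168977-68169072 and Mir30d at chr15:68172770-68172851 lay on the minus strand with 3697 bases between them and no overlapping gene. miR-30c-5p has the same sequence in Mir30c-1 and Mir30c-2, so its counts combine both loci.

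Total counts were 2064562 to 3253798 per mouse, and levels are given as CPM (counts scaled to the size of each library, the usual unit of small RNA sequencing) with TMM factors, so that 3 counts correspond to 0.933 to 1.39 CPM. The SD mice M1N and M2N stood apart from the other 6 on the first principal component of all small RNAs tested, which held 48.2% of the variance, with scores of -69.65 and -34.11 against 4.133 to 33.19. The fold changes, summed levels and arm ratios are therefore also given against M1N and M2N alone and against TN1 and TN2 alone. The defining germ cell miRNAs (the miR-34b/c and miR-449a group) were present in every mouse, with summed levels of 13195 to 17772 CPM in SD and 13031 to 17902 CPM in WD, and 17 of 20 listed markers were in the table. The largest members of the germ cell sum, miR-34c-5p and miR-34b-5p, had log2 fold changes of 0.08 and -0.06. miR-449a-5p averaged 1490 CPM in SD and 969 CPM in WD (-0.62, edgeR adjusted p 0.318). miR-34b-3p averaged 1363 CPM in SD and 996 CPM in WD (-0.45, edgeR adjusted p 0.331). The markers listed for gonadal somatic cells were both arms of miR-202, whose cell of origin was not tested here. Their sum was 3609 to 4193 CPM in SD and 4187 to 7021 CPM in WD, so that the ranges overlapped only at the edge. The arms behind this sum went opposite ways: miR-202-5p, which makes up most of it, averaged 3833 CPM in SD and 4891 CPM in WD (log2 fold change 0.35, edgeR adjusted p 0.391), and miR-202-3p 146 and 115 CPM (-0.34, edgeR adjusted p 0.507). Summed markers of other cell types overlapped widely between SD and WD, at 3058 to 4321 and 3232 to 5921 CPM for smooth muscle and stroma, 1323 to 2099 and 1248 to 2438 CPM for endothelium, 181 to 380 and 169 to 352 CPM for leucocytes, and 38.3 to 148 and 74.6 to 132 CPM for red blood cells. The leucocyte markers went different ways, with log2 fold changes of 0.60 for miR-142-3p, 0.26 for miR-142-5p and -0.50 for miR-223-3p. Their edgeR adjusted p were 0.326, 0.444 and 0.496. The liver marker miR-122-5p was at 0 in all WD mice and at 0 to 15.4 CPM in SD mice, and the muscle marker found was at 4.61 to 12.8 CPM over all mice. Among the SD mice M1N had the lowest miR-202 sum (3609 CPM) and the highest germ cell (17772 CPM), endothelial (2099 CPM) and leucocyte (380 CPM) sums. The part of cell types in the results below was not tested. In whole testis, fewer cells of a type and less RNA per cell cannot be told apart.

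All 5 guide-side 5p arms were abundant, whereas the 3p arms ranged from moderate levels to a few reads. By mean CPM over 8 mice (the mean ± SD is given throughout), miR-30c-5p led with 764 ± 173, which placed it 33rd of 551 mature miRNAs. It was followed by miR-30d-5p (588 ± 63.6), miR-30b-5p (563 ± 109), miR-30a-5p (550 ± 118) and miR-30e-5p (415 ± 94.6). The 3p arms of miR-30e (83.6 ± 14.7) and miR-30a (56.7 ± 9.62) came next. Neighbours at the top of this order were not separated beyond their spread: miR-30c-5p exceeded miR-30d-5p in 6 of 8 mice, miR-30d-5p exceeded miR-30b-5p in 4 and miR-30b-5p exceeded miR-30a-5p in 6. From there the order held in 8 of 8 mice, for miR-30a-5p over miR-30e-5p, miR-30e-5p over miR-30e-3p and miR-30e-3p over miR-30a-3p. The other 3p arms gave few reads, with 53 counts in all mice together for miR-30c-2-3p, 49 for miR-30d-3p and 29 each for miR-30b-3p and miR-30c-1-3p. These 4 arms did not pass the filter on low counts, so 7 of the 11 arms were tested.

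**Figure D1:**
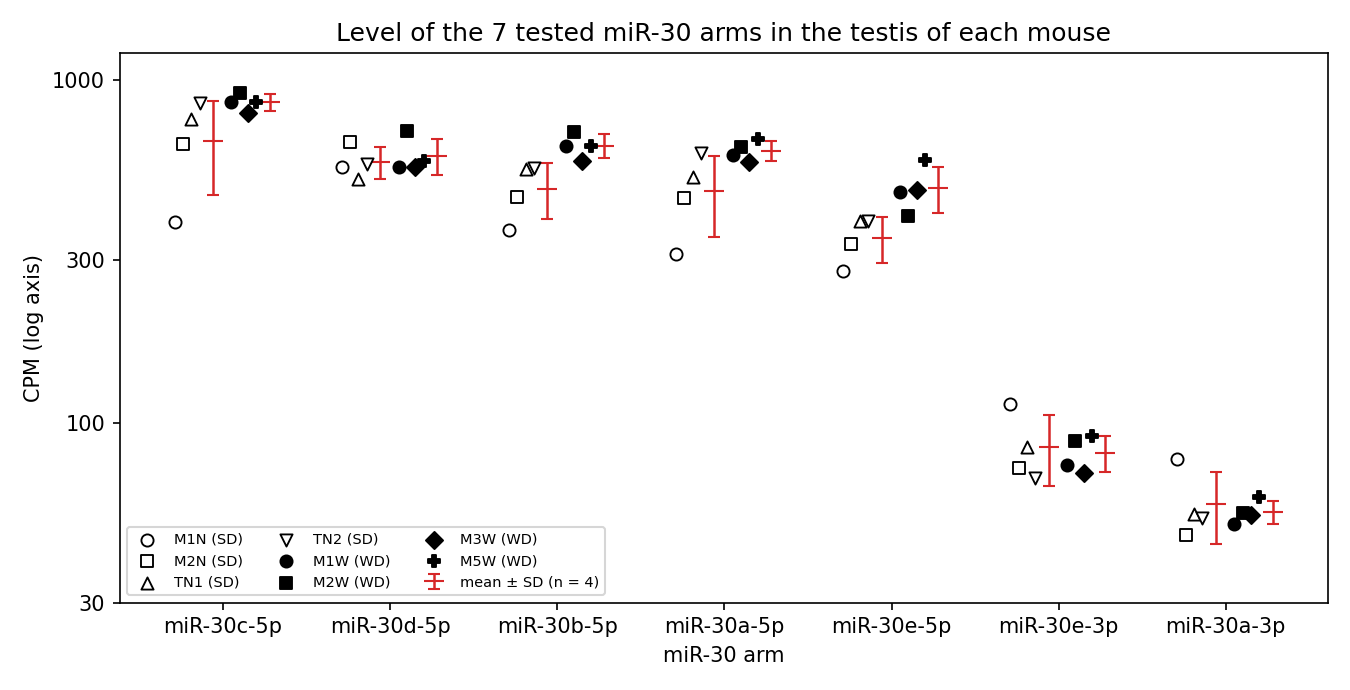
CPM on a log axis for the 7 tested miR-30 arms in each of the 4 SD mice (open symbols) and 4 WD mice (filled symbols), with the mean ± SD of each diet in red. For miR-30b-5p and miR-30e-5p every filled symbol lies above every open one, and M1N is the lowest mouse for 4 of the 5 5p arms and the highest for both 3p arms.

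miR-30e-5p, the 5p arm of the Nfyc intron hairpin Mir30e, had the largest fitted difference of the family. Its levels were 278, 333, 389 and 389 CPM in M1N, M2N, TN1 and TN2, and 471, 401, 479 and 583 CPM in M1W, M2W, M3W and M5W. With the TMM factors every WD mouse was above every SD mouse, the closest being M2W. This separation depended on the scaling. M2W had 915 of 2290920 counts and TN2 840 of 2064562, so by column totals alone M2W was below TN2. The means were 347 ± 53.3 CPM in SD and 484 ± 75.0 CPM in WD (n = 4 each), a fitted log2 fold change of 0.48 (SE 0.17), or 1.39-fold. edgeR's quasi-likelihood test gave an unadjusted p of 0.0137 and an adjusted p of 0.318 over the 16955 small RNAs tested (0.205 within the miRNA class). The exact permutation test of log2 CPM gave its smallest possible two-sided p of 0.0286. With 4 mice per diet any complete separation gives this value, so it only restates that the diets did not overlap at this scaling. The study names miR-30e-5p in its own list of deregulated miRNAs, which was drawn from these same mice, so the direction is not independent evidence. The fold change listed there for testis sequencing is larger than the 1.39 found here. The study's quantitative RT-PCR values for this arm in testis and sperm are smaller than both and are not marked as significant.

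miR-30b-5p, cut from the chromosome 15 pair, followed the same pattern at a higher level. It measured 366, 458, 552 and 556 CPM in the 4 SD mice, in the order used above, and 643, 707, 580 and 644 CPM in the 4 WD mice. With the TMM factors the diets did not overlap, with M3W only slightly above TN2. As a share of the mature miRNA counts they did, with 1612 of 287870 in M2W and 1201 of 187584 in TN2. Means of 483 ± 90.2 and 643 ± 51.8 CPM gave a log2 fold change of 0.41 (SE 0.17), with an edgeR adjusted p of 0.323. The exact permutation p of 0.0286 again only restates the separation. In the other tested arms the exact permutation p was 0.0571 for miR-30c-5p, 0.0857 for miR-30a-5p and 0.571 for miR-30d-5p. It was 0.914 for miR-30e-3p and 0.857 for miR-30a-3p.

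miR-30a-5p and miR-30c-5p overlapped between the diets. Their precursors Mir30a and Mir30c-2 are neighbours, but the counts of miR-30c-5p also include Mir30c-1, the neighbour of Mir30e. miR-30a-5p measured 312, 453, 523 and 613 CPM in SD and 604, 637, 579 and 674 CPM in WD. miR-30c-5p measured 386, 652, 769 and 856 CPM in SD and 866, 917, 801 and 866 CPM in WD. For both arms the overlap came from TN2, while M1N was the lowest of all mice. The log2 fold changes were 0.39 (SE 0.19, edgeR adjusted p 0.352) for miR-30a-5p and 0.37 (SE 0.21, edgeR adjusted p 0.398) for miR-30c-5p. The coefficient of variation of miR-30c-5p was 30.7% in SD and 5.54% in WD, against a counting error of 1.90 to 2.98% per mouse, so the spread between mice exceeded the counting error in both diets.

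miR-30d-5p, whose precursor is the neighbour of Mir30b, lacked this shape. Its levels were 557, 660, 516 and 570 CPM in SD and 557, 709, 557 and 581 CPM in WD. M1N and M2N were not low here, and M2N was the second highest mouse after M2W. The means of 576 ± 60.8 and 601 ± 72.8 CPM differed by a log2 fold change of 0.06 (SE 0.16), with an edgeR adjusted p of 0.861.

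The 3p arms that could be tested, the strands opposite miR-30e-5p and miR-30a-5p, had fitted differences near 0. miR-30e-3p measured 114, 74.0, 85.1 and 69.0 CPM in SD and 75.6, 88.6, 71.4 and 91.8 CPM in WD. miR-30a-3p measured 78.5, 47.2, 54.5 and 52.8 CPM in SD and 51.0, 54.8, 53.9 and 61.0 CPM in WD. In both arms M1N was the highest of 8 mice, and another SD mouse was the lowest, TN2 for miR-30e-3p and M2N for miR-30a-3p. The log2 fold changes were -0.06 (SE 0.18, edgeR adjusted p 0.880) for miR-30e-3p and -0.08 (SE 0.18, edgeR adjusted p 0.847) for miR-30a-3p. Without M1N they turned to 0.11 and 0.10.

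Of the 7 arms tested, 0 passed an adjusted p of 0.05 in edgeR, where the background was 0% of all 16955 small RNAs and 0% of the 418 miRNA-class entries, and DESeq2 and limma-voom also called 0. The unadjusted p was 0.05 or less for 2 arms (miR-30b-5p and miR-30e-5p, both higher in WD), against 16.5% of the miRNA class in either direction, 9.57% in the WD-higher direction and 14.6% of all small RNAs. It was 0.1 or less for 4 arms, all 5p and higher in WD, against 16.3% of the class in that direction. With a fold change of at least 1.5 required as well, 0 arms remained, against 15.1% of the class. TMM factors from the miRNA class alone raised the unadjusted edgeR p of these arms. It became 0.0478 for miR-30e-5p, 0.0811 for miR-30b-5p, 0.138 for miR-30a-5p and 0.184 for miR-30c-5p. The unadjusted limma-voom p was lower than the main value for miR-30a-5p (0.0394) and miR-30c-5p (0.0593). At the TMM scaling the WD mice all exceeded the SD mice in 2 arms, against 5.5% of the class. By column totals alone miR-30e-5p overlapped, and as a share of the mature miRNA counts both arms did. All 5 tested 5p arms had a positive log2 fold change, with a median of 0.39, where 52.4% of the class was positive with a median of 0.03 and the 178 mature 5p miRNAs tested, the family included, had a median of 0.11. The 2 tested 3p arms had a median of -0.07, against -0.01 for 181 mature 3p miRNAs. The 5p arms share a seed, loci and possibly reads, so they are not separate observations of the diet.

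**Figure D2:**
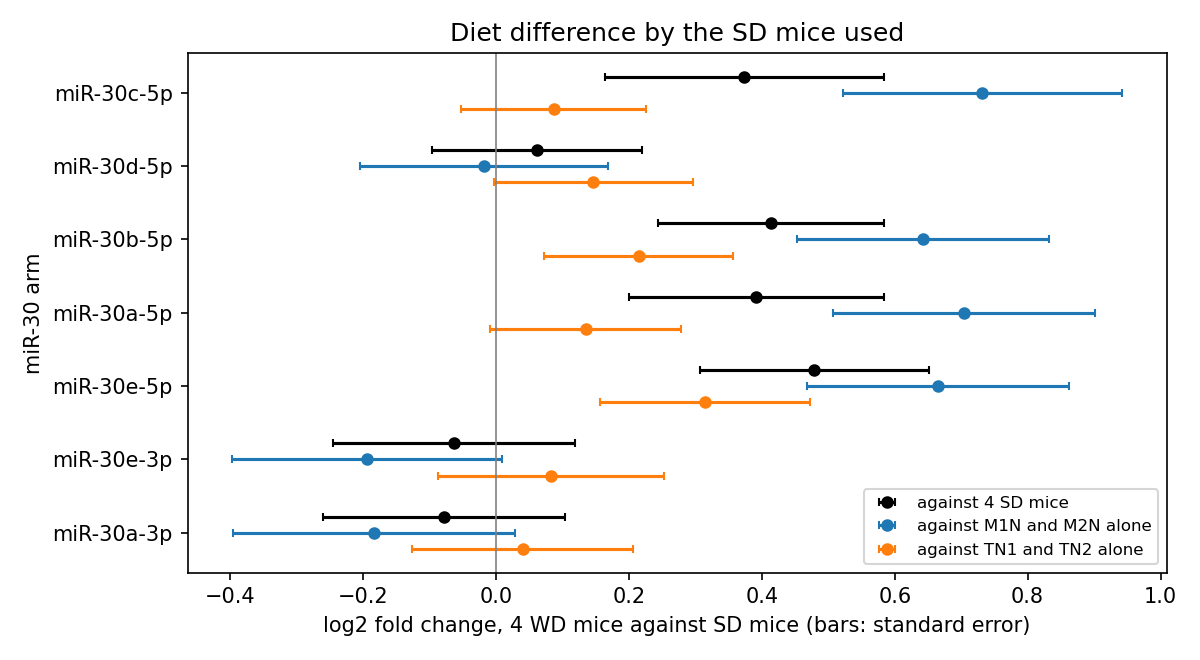
Fitted log2 fold change (WD against SD) with its SE for the 7 tested miR-30 arms, against all 4 SD mice, against M1N and M2N alone and against TN1 and TN2 alone. The values against M1N and M2N reach 0.73 for miR-30c-5p, whereas those against TN1 and TN2 lie between 0.04 and 0.31.

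The difference depended on which SD mice served as controls. Against M1N and M2N, 4 of 7 arms passed the edgeR adjusted p of 0.05, all higher in WD, where the background was 20.8% of small RNAs, 18.5% of the miRNA class and 8.83% of the class in the WD-higher direction. These were miR-30c-5p (log2 fold change 0.73, SE 0.21, adjusted p 0.0183), miR-30a-5p (0.70, SE 0.20, adjusted p 0.0161), miR-30e-5p (0.66, SE 0.20, adjusted p 0.0214) and miR-30b-5p (0.64, SE 0.19, adjusted p 0.0206). miR-30d-5p gave -0.02 (SE 0.19, adjusted p 0.956). Against TN1 and TN2, 0 of 7 arms passed, where the background was 0.134% of small RNAs, 4.07% of the class and 0% of the class in the WD-higher direction, and 0 had an unadjusted p of 0.05 or less. There the largest value was again that of miR-30e-5p (0.31, SE 0.16, unadjusted p 0.0610), followed by miR-30b-5p (0.21, SE 0.14). Both comparisons use the same 4 WD mice and each has only 2 SD mice. The names of all 4 WD mice begin with M, as do those of M1N and M2N. The comparison against TN1 and TN2 therefore differs in name letters as well as in diet. The main comparison does so in part, since TN1 and TN2 are among its SD mice. As both TN mice were SD, the difference in names and the diet cannot be fully told apart.

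Summed over the 5 arms, the 5p level was 2547 ± 466 CPM in SD (1900 to 2984) and 3214 ± 178 CPM in WD (2996 to 3371), a ratio of 1.26. The lowest WD mouse (M3W) exceeded the highest SD mouse (TN2) only narrowly, with TMM factors of 1.005 and 1.046. By column totals alone TN2 was above M3W. M1N and M2N averaged 2228 CPM, whereas TN1 and TN2 averaged 2867 CPM. The summed 3p level was 151 ± 33.5 CPM in SD and 144 ± 14.4 CPM in WD, where M1N and M2N averaged 165 CPM and TN1 and TN2 136 CPM, so that WD was below the first pair and above the second. The whole family took 2.73 ± 0.779% of the mature miRNA counts in SD and 3.31 ± 0.459% in WD. This share averaged 2.12% in M1N and M2N and 3.33% in TN1 and TN2, so that WD was not higher than the TN mice.

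**Figure D3:**
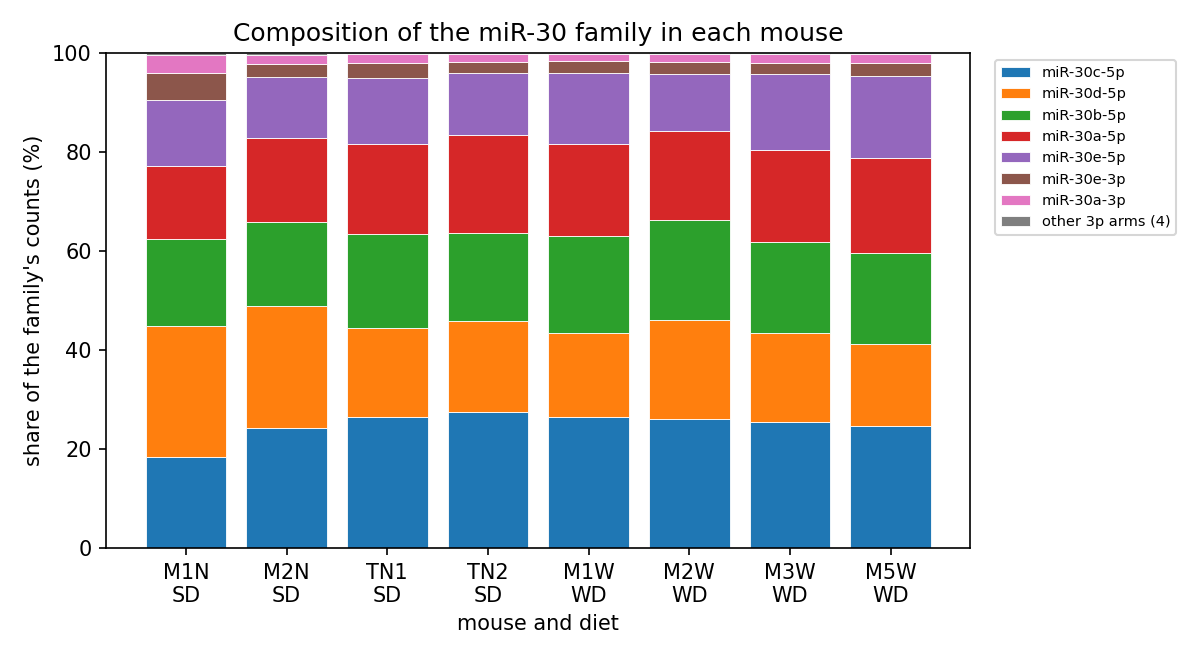
Share of the family's counts held by each miR-30 arm in each mouse, in percent. miR-30d-5p holds 26.5% in M1N and 24.6% in M2N but 16.5 to 20.1% in the other 6 mice, and miR-30c-5p falls to 18.4% in M1N.

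The make-up of the family differed in M1N and M2N. miR-30d-5p held 26.5% of the family's counts in M1N and 24.6% in M2N, and 16.5 to 20.1% in the other 6 mice. The ratio of miR-30d-5p to miR-30b-5p, its neighbour, was 1.52 in M1N and 1.44 in M2N, 0.934 in TN1 and 1.02 in TN2, and 0.866 to 1.00 in the WD mice. Relative to their own means over 8 mice on the log2 CPM scale, M1N lay at -0.94 for miR-30c-5p, -0.78 for miR-30a-5p, -0.59 for miR-30b-5p and -0.55 for miR-30e-5p, but at -0.07 for miR-30d-5p. The shift was thus unequal among arms, and M2N was the second lowest mouse in the same 4 arms. None of the 10 ratios between 5p arms separated the diets.

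**Figure D4:**
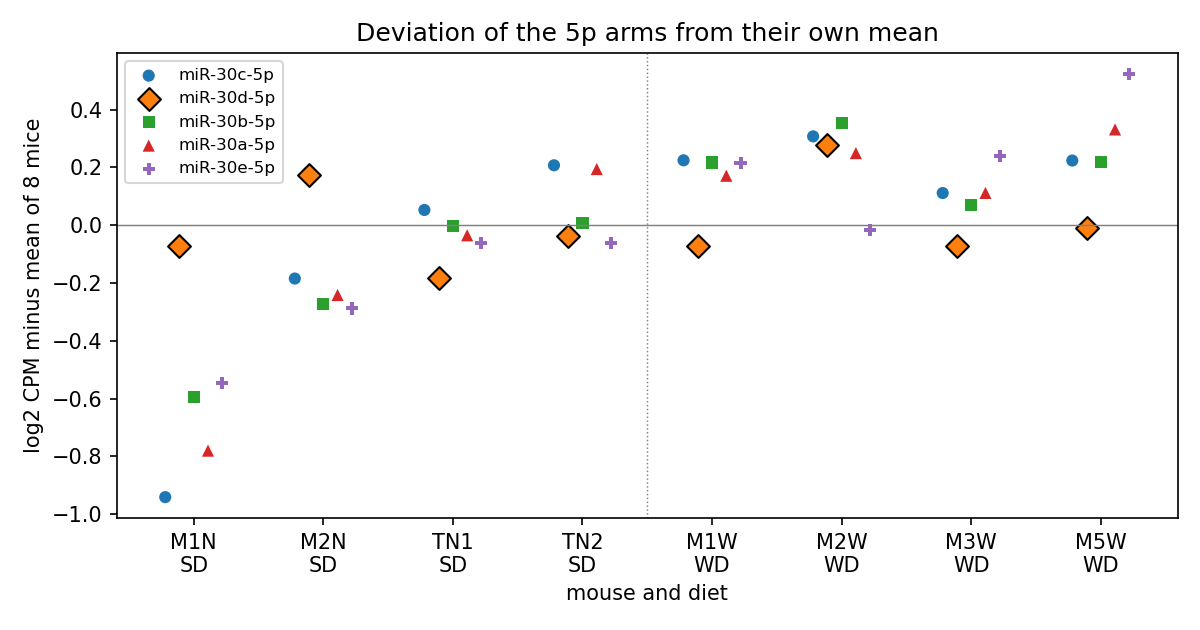
Log2 CPM of each 5p arm minus its mean over the 8 mice, by mouse, with miR-30d-5p drawn as large outlined diamonds. In M1N 4 arms lie between -0.94 and -0.55 while miR-30d-5p lies at -0.07.

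The share of reads from the 3p arm sorted the precursors into 2 kinds. miR-30e and miR-30a kept a sizeable 3p share, 16.9% and 9.46% of both arms' counts over all mice, or 4.93 and 9.57 reads of the 5p arm per 3p read. miR-30c, miR-30d and miR-30b gave 204, 264 and 426 reads of the 5p arm per 3p read, a 3p share of 0.488%, 0.377% and 0.234%. Among 115 miRNA base names with a mean of at least 10 counts in both arms, miR-30c, miR-30a and miR-30e were included, and the median log2 ratio of 5p to 3p was 0.64.

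The 3p share was highest in M1N for both precursors. For miR-30e it was 29.0% in M1N (95% exact binomial interval 26.4 to 31.8%, which covers counting error only), 18.2% in M2N, 17.9% in TN1 and 15.1% in TN2, and 13.8%, 18.1%, 13.0% and 13.6% in M1W, M2W, M3W and M5W. For miR-30a it was 20.1% in M1N (17.8 to 22.5%), 9.43% in both M2N and TN1, 7.93% in TN2 and 7.79 to 8.52% in the WD mice. The M1N interval of each precursor lay above the value of every other mouse. Relative to the mean of 8 mice, the log2 ratio of 5p to 3p in M1N lay at -1.26 for miR-30a, -1.01 for miR-30e and -1.12 for miR-30c, where the median deviation of M1N over the 115 base names was -0.01. Such extremes were not limited to the family, since M1N had the lowest ratio of 8 mice in 29 of the 115 base names (25.2%) and the highest in 22. For miR-30c, M2N lay lower still, at -1.29.

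**Figure D5:**
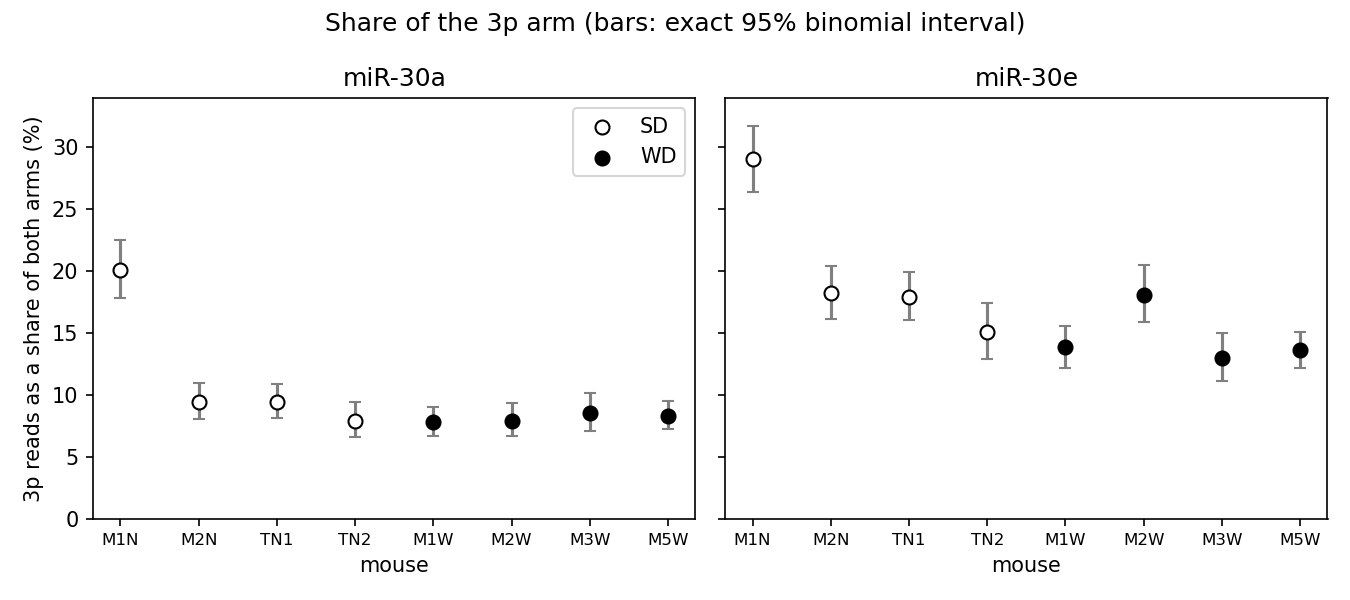
Percent of the 5p and 3p counts that came from the 3p arm for miR-30a and miR-30e in each mouse, with 95% exact binomial intervals. M1N reaches 20.1% for miR-30a and 29.0% for miR-30e, above the 7 other mice.

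The arm ratios of the family overlapped between the diets. The difference in log2 ratio of 5p to 3p (WD minus SD) was 0.52 (SE 0.28) for miR-30e, 0.48 (SE 0.31) for miR-30a and 0.42 (SE 0.47) for miR-30c, with limma adjusted p of 0.373, 0.474 and 0.684. So 0 of 3 passed, where the background was 0% of 115 base names, and 0 had an unadjusted p of 0.05 or less, where the background was 16.5%. In none did every WD mouse exceed every SD mouse (2.61% of base names), and all 3 means were higher in WD (59.1% of base names, with a median difference of 0.07). Without M1N the differences fell to 0.27, 0.14 and 0.11. Against M1N and M2N alone, miR-30c passed (1.41, limma adjusted p 0.0242, from 11 and 23 counts of its 3p arms in M1N and M2N), where the background was 17.4%, while miR-30a (0.87) and miR-30e (0.83) had adjusted p of 0.0882 and 0.0874. Against TN1 and TN2 the values were 0.10 for miR-30a and 0.21 for miR-30e, and 0 passed, where the background was 0% of 106.

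In the counts as deposited, the near-identical members stood in opposite orders on the 2 arms. The rule for reads that matched both is not given, and its part in these ratios was not tested. miR-30a-5p exceeded miR-30e-5p by 1.35 ± 0.185 times in SD and 1.31 ± 0.193 times in WD, whereas miR-30a-3p was at 0.683 ± 0.0594 of miR-30e-3p in SD and 0.678 ± 0.0566 in WD. Over the 8 mice the 5p ratio ranged from 1.12 in M1N to 1.59 in M2W, and the 3p ratio from 0.619 in M2W to 0.765 in TN2.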

How the data were processed

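The authors deposited the raw read count of every small RNA in each mouse, neither pooled nor normalised. Per the study's methods, SOLiD reads were trimmed at the adaptor, aligned to mm9 with Bowtie and annotated with miRBase, Rfam and a further non-coding RNA database. The Bowtie version, the counting program and the rule for multiply matching reads are not given in the sources used here. Counts were tested with edgeR 4.0.16 in R 4.3.3 (TMM factors, column totals as library sizes, filterByExpr with a minimum count of 10 and a minimum total of 15, two-sided quasi-likelihood test) in a model of diet alone, with Benjamini-Hochberg adjustment over all 16955 small RNAs tested. SE values were derived from the F statistic. The arm ratio, log2 of (5p count + 0.5) over (3p count + 0.5), was tested with limma 3.58.1 over 115 base names. Exact permutation tests used all 70 assignments of mice to diets. DESeq2 1.42.0, limma-voom, other scalings, filters and control mice, and each mouse left out, were alternatives. Figures were drawn with matplotlib 3.10.9. Both procedures were tested on simulated data. The simulated counts varied independently between small RNAs and held no mouse set apart as M1N and M2N were, so they do not cover that case. The members and lists were chosen with earlier results of these data known. Named genes were all members, any entries sharing a seed, precursor-named entries, the 3 most similar miRNAs outside the family for miR-30e-5p and for miR-30a-5p, and cell type markers. The labels give each library as a separate mouse, but not litters or cages. Depths of 2064562 to 3253798 counts set a counting error of 2.31 to 3.51% for miR-30e-5p.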

Additional observations from a re-analysis of the deposited data

Results flagged for a closer look

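miR-30d-5p measured 709 CPM in M2W and 557 to 581 CPM in the other WD mice, and the gap to the nearest of them was 0.841 of the group's range, above Dixon's critical value of 0.829 for 4 samples. It was the only such value among the 42 groups of 4 mice examined, where chance gives about 2.1.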

How the results depend on the processing

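Over 10 results (the log2 fold changes of 7 arms and the arm ratio differences of 3 precursors), 181 values were computed under the alternatives. Of these, 168 kept their direction and side of the threshold (an adjusted p of 0.05), 6 passed the threshold in addition and 7 changed sign. All 10 results missed the threshold in the main fit, so keeping the side does not show a stable size. The log2 fold change of miR-30c-5p was among those kept at 0.087 against TN1 and TN2 alone and at 0.52 without TN2. Those that changed sign were small differences: miR-30d-5p gave -0.018 against M1N and M2N alone, and -0.024 to 0.14 with each mouse left out. miR-30e-3p gave 0.0038 with column totals, 0.083 against TN1 and TN2 alone, and -0.15 to 0.11 with each mouse left out, and miR-30a-3p gave 0.040 against TN1 and TN2 and -0.17 to 0.10. The number of arms with an adjusted p under 0.05 rose from 0 to 4 against M1N and M2N alone. The number that met both the p limit of 0.1 and the 1.5-fold limit rose from 0 to 4 against M1N and M2N, to 4 without the fold threshold, to 3 with the replicate block (the number in the mouse name, over M1N, M2N, M1W and M2W) and to 3 in the same 4 mice without the block, an alternative chosen after seeing the data. The number of precursors with a called arm ratio rose from 0 to 1 against M1N and M2N and to 1 with the replicate block, for miR-30c (1.77, limma adjusted p 0.000816). In the same 4 mice without the block the miR-30c difference was also 1.77, with a limma adjusted p of 0.0653, and 0 precursors were called. The miR-30c arm ratio had no value without M2N, against TN1 and TN2 or at a mean of 30 counts, since its 3p arms then fell below the minimum. Same-numbered mice correlated at -0.0779 (M1N with M1W) and 0.243 (M2N with M2W) over 16955 small RNAs, and mice of unlike number at 0.233 (M1N with M2W) and -0.0699 (M2N with M1W). No source used here ties the number to a litter or day, so it was not taken as a pairing. By median in place of mean CPM, 5 of 11 arms held their place in the order by level. The causes were not tested. With each mouse left out, miR-30e-5p stayed at 0.38 to 0.56, and without M1N miR-30c-5p fell to 0.18 and miR-30a-5p to 0.24. Over all alternatives the adjusted p of miR-30e-5p was 0.0214 to 1. The depth does not resolve the 4 rarest 3p arms, with 1 to 15 counts per mouse.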

Other observations

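The mature miRNAs outside the family whose pattern over the 8 mice was most like that of miR-30e-5p were miR-19b-3p, miR-742-5p and miR-467a-5p, with root mean square differences of centred log2 CPM of 0.110, 0.156 and 0.181. Among 162 candidates, miR-30a-5p came 3rd for miR-30e-5p, miR-30b-5p 6th, miR-30c-5p 18th and miR-30d-5p 45th, and the 3p arm of the same hairpin, miR-30e-3p, came 72nd. For miR-30a-5p the nearest were the family's own miR-30c-5p (0.0827) and miR-30b-5p (0.111), then miR-742-5p (0.153), miR-17-5p (0.153) and miR-883b-3p (0.158), whereas miR-30e-5p, which differs from it by a single base, came 8th. These are descriptions over the same 8 libraries, and each miRNA's values in a library share that library's scaling.

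2 entries named for precursors held a few reads: pre-mir-30c-1 had 1 to 4 counts per mouse (21 in all) and pre-mir-30b 0 to 5 (12 in all), and neither passed the filter. RefSeq lists the seed GUAAACA of the 5p arms also in miR-384-5p, and the seed UGGGAGA of the miR-30c 3p arms also in miR-6958-5p. Neither had an entry among the deposited counts.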
